A study of Mus musculus with 6 samples.

Results

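Blood vessel genes were followed through 6 primary mouse osteosarcomas by 10 genes chosen by name from the 39179 genes of the count table. They are 5 genes of vascular endothelium in general (*Pecam1*, *Cdh5*, *Tek*, *Flt1* and *Emcn*), 2 genes of sinusoidal endothelium (*Stab2* and *Clec4g*) and 3 secreted angiogenic factors (*Vegfa*, *Angpt1* and *Angpt2*). All 10 were found in the table, and 9 passed the filter on low counts, *Clec4g* being the exception. The tumors arose in mice of a mixed C57BL/6 x 129/Sv x FVB background that all carried the *Nf2*Δ2/+ genotype. In 3 of them (No244, No316 and No368) *Cd44* was intact (*Cd44*+/+), and in the other 3 (No203, No279 and No364) it was deleted (*Cd44*-/-), so that the effect of CD44, a receptor for hyaluronan, on tumor gene expression could be compared on the same *Nf2* background. The labels give the deletion as a genotype of the mouse and name no promoter or cell type that drives it. The labels give neither age, sex nor tumor site. Their extraction note speaks of cell lines, while the tissue label and the study's text name tumor tissue. RNA of whole tumor was sequenced, so fewer endothelial cells and less RNA per endothelial cell cannot be told apart.

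Vessels are lined by endothelial cells, which are joined by VE-cadherin (*Cdh5*) and PECAM-1 (*Pecam1*) and carry the glycoprotein endomucin (*Emcn*) on capillaries and veins. VEGF-A (*Vegfa*), made by tumor and stromal cells, drives new vessel growth through VEGFR-2 (*Kdr*), while VEGFR-1 (*Flt1*) binds it tightly and also exists as a soluble decoy. Angiopoietin-1 (*Angpt1*), from mural and other stromal cells, activates the endothelial receptor TIE2 (*Tek*) and stabilizes vessels, and angiopoietin-2 (*Angpt2*), released by endothelium that is being remodeled, mostly opposes it. Stabilin-2 (*Stab2*) and the lectin LSECtin (*Clec4g*) belong to the leaky sinusoids of liver, and *Stab2*, a scavenger receptor for hyaluronan, also to those of spleen, lymph node and bone marrow.

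The genes lie on GRCm38 at the GENCODE M21 coordinates chr11:106654217-106750628 (*Pecam1*, minus strand), chr8:104101625-104144511 (*Cdh5*, plus), chr4:94739289-94874976 (*Tek*, plus), chr5:147561604-147726011 (*Flt1*, minus), chr3:137341067-137432185 (*Emcn*, plus), chr10:86841198-87008025 (*Stab2*, minus), chr8:3707064-3720651 (*Clec4g*, minus), chr17:46016993-46032369 (*Vegfa*, minus), chr15:42424723-42676977 (*Angpt1*, minus) and chr8:18690263-18741562 (*Angpt2*, minus). All are protein coding. *Angpt2* overlaps *Mcph1* on the opposite strand, *Stab2* overlaps 5 predicted genes on the opposite strand, and *Cdh5*, *Clec4g* and *Angpt1* overlap 1 each. The strand setting of the counting is not given in the sources used here, so counts of these 5 genes are uncertain to that extent.

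Windows of 250 bases upstream of a transcript start were at hand in RefSeq (GRCm38.p6) for 6 of the 10 genes (*Emcn*, *Tek*, *Flt1*, *Clec4g*, *Stab2* and *Vegfa*, the last with 2 starts). They were searched on both strands for CCTGCG, the letters of the response element of the CD44 intracellular domain (CIRE), which the study looked for in promoters of other genes. It stood in 2 of the 7 windows, those of *Flt1* and of a start inside *Vegfa*, and in 14.1% of the 32851 windows of this length in the table. The TRE letters TGACTCA were in 0 of the 7 windows and in 4.46% of all, and the GC box letters GGGCGG in 3 of the 7 and in 32.7% of all, and none of the searched motifs contains another. The windows with the CIRE letters are shown because the values of their genes are compared between the *Cd44* genotypes here. They read 5′ to 3′ on the strand of the gene and end at the base before the start, with the CIRE letters in capitals. The first capital is at -225 in *Flt1* (chr5:147726012-147726261, minus strand) and at -176 in *Vegfa* (chr17:46025164-46025413, minus strand). A match in letters is not a binding site, and no binding was measured in these tumors.
Flt1: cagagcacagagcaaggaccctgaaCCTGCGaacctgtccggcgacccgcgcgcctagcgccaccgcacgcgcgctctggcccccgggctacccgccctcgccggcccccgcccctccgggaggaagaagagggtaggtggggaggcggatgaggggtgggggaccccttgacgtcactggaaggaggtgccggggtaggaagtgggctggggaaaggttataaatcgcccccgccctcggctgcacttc
Vegfa, internal start: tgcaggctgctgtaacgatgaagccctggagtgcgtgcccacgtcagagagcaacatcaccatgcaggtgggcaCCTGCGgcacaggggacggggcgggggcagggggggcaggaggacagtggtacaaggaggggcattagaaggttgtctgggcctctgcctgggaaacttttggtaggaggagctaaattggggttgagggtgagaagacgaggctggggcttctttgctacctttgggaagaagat

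Total counts ran from 18076388 to 26954142 per tumor, and mitochondrial genes took 55.2% of them in No244 against 5.94% to 12.5% elsewhere. Values are normalized counts (CPM), scaled to the library by the TMM method, and are listed for No244, No316, No368 (*Cd44*+/+) and then for No203, No279, No364 (*Cd44*-/-). On this scale the least level taken as detectable (3 counts) is from 0.0990 to 0.252 CPM. Whether genotypes overlap is judged on it too, and depends on it. The genotypes of 3209 genes did not overlap on this scale, and those of 2046 with library size alone. *Cd44* itself had 137.3, 243.6 and 240.3 CPM with the allele intact and 19.2, 15.7 and 61.8 CPM with it deleted, in the direction of the labels. The counts of No316 and No368 were almost in 1 proportion throughout. Of 16671 genes, 87.2% lay within the 95% range of binomial sampling noise, against 15.7% to 24.1% for any other pair, and so did 6 of the 8 vascular genes that reached 20 counts over both. They were counted as 1 sample in each mean ± SD, leaving n = 2 for *Cd44*+/+ and n = 3 for *Cd44*-/-, while the fits used 6 libraries. The labels number the mice but do not say how the samples were taken, so p-values measure only the spread between these samples. The fits counted No316 and No368 as 2 samples, so their p-values are likely too small. Genes at an unadjusted p under 0.05 by edgeR numbered 1810 with 6 libraries and 761 with the pair summed. Marker genes of other cell types differed between the tumors. Red cell genes were highest in No244, with a sum of 9594 CPM against 137 to 3499 CPM elsewhere. The 12 hepatocyte genes summed to 151241 CPM in No364 and to between 87.2 and 202.7 CPM in the others, and all 12 had at least 3 counts in each tumor. The origin of the low hepatocyte counts outside No364 was not tested. The mean log2 CPM of 8 osteoblast genes was 6.52 in No279 and 4.95 in No364 against 10.4 to 10.9 elsewhere. *Sp7*, a transcription factor that defines osteoblasts and was picked outside the naming rule, had 3.96 and 0.314 CPM there against 192.0 to 333.2 CPM in the other 4. The list was not uniform, since *Col1a1* had 11990 CPM in No279, within the 8482 to 29441 CPM of those 4, and *Bglap* was also low in No203 (269.2 CPM against 1833 to 3481 CPM in the *Cd44*+/+ tumors).

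**Figure D1:**
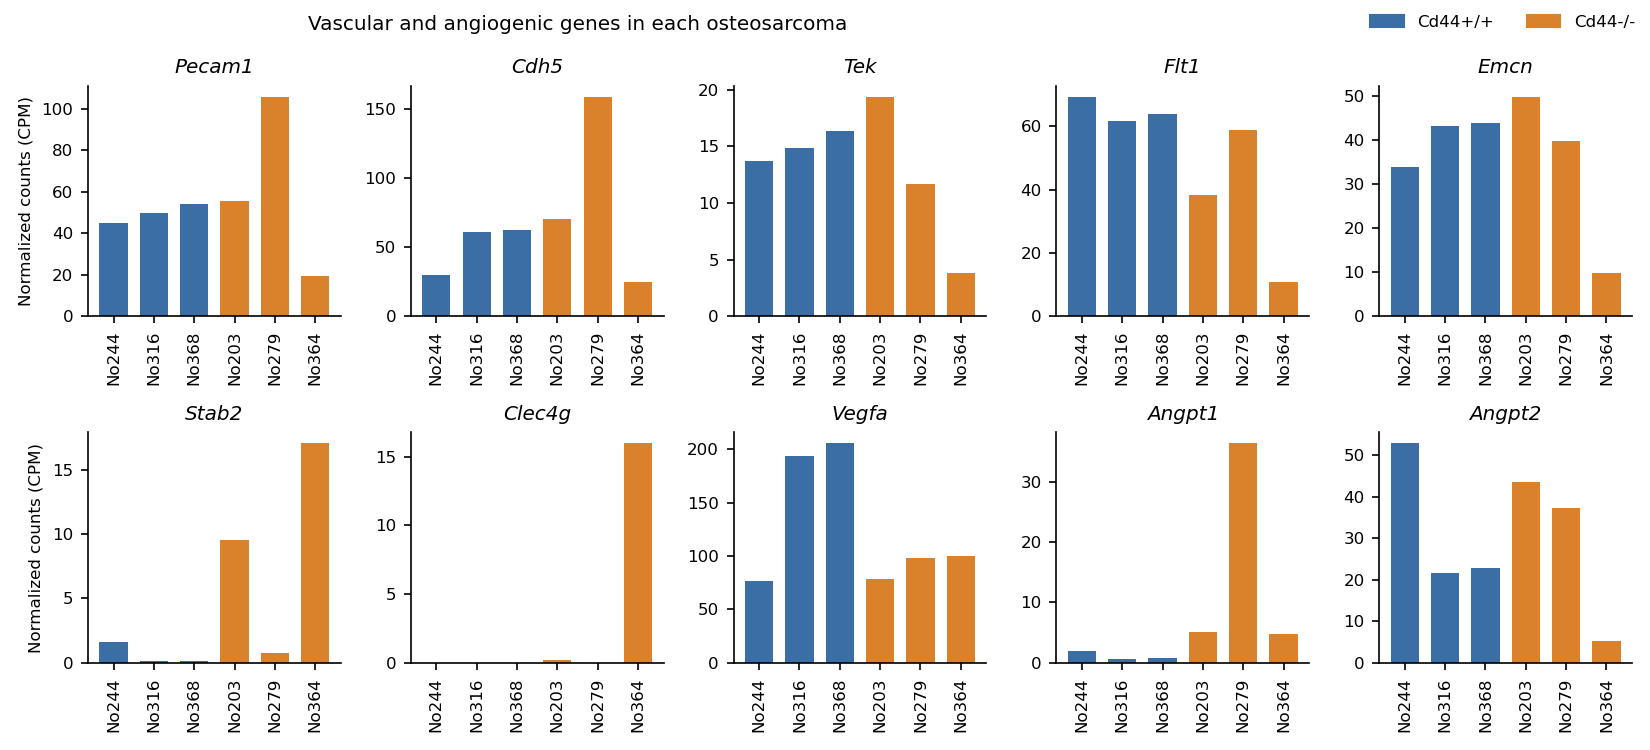
Normalized counts (CPM, vertical axis from 0, a scale for each gene) of the 10 genes in each tumor, *Cd44*+/+ in blue and *Cd44*-/- in orange, 1 bar per tumor. *Cdh5* and *Pecam1* were highest in No279, 6 of the 9 tested genes were lowest in No364, and *Clec4g* reached 15.96 CPM in No364 with 3 counts or more in only 1 other tumor.

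The endothelial genes did not separate the genotypes as a group. edgeR's quasi-likelihood test with Benjamini-Hochberg adjustment called 0 of the 9 tested vascular genes (background 0% of 16839 genes, smallest adjusted p = 0.452). At an unadjusted p under 0.05 it gave 2 higher in *Cd44*-/- tumors (*Stab2* and *Angpt1*; background 6.44%) and 0 lower (background 4.31%). With No316 and No368 summed as 1 sample, *Angpt1* alone stayed under 0.05 (unadjusted p = 0.0337 by edgeR). Every *Cd44*-/- tumor lay above every *Cd44*+/+ tumor for 1 of the 9 (*Angpt1*; background 9.49%) and below for 1 (*Flt1*; background 9.57%). The common biological coefficient of variation, the typical spread of a gene between tumors of 1 genotype relative to its mean, was 0.708. It counts No316 and No368 as separate tumors. DESeq2, tried as an alternative, called 1 of the 9, *Angpt1*, as higher (background 1.21%).

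*Cdh5*, which encodes the cadherin of endothelial junctions, had 29.8, 60.9 and 62.5 CPM in the tumors with *Cd44*, then 70.4, 159.0 and 24.9 CPM in No203, No279 and No364. The *Cd44*-/- tumors held both the highest and the lowest value, a span of 6.38-fold, and so the genotypes overlapped. The means were 45.8 ± 22.5 CPM (SD, n = 2) and 84.8 ± 68.2 CPM (SD, n = 3). The fitted log2 fold change, 0.73 with a standard error of 0.69, did not pass the test (adjusted p = 0.693 by edgeR's quasi-likelihood test). *Pecam1*, for the adhesion molecule PECAM-1, followed the same order, with 45.1, 49.6 and 54.2 CPM in the *Cd44*+/+ tumors and 55.8, 105.8 and 19.6 CPM in the *Cd44*-/- tumors. Its log2 fold change of 0.28 (standard error 0.59, adjusted p = 0.871 by edgeR) was smaller than its error. With No364 left out, both *Cd44*-/- tumors that remained lay above the *Cd44*+/+ tumors for *Cdh5* and *Pecam1* (log2 fold changes 1.17 and 0.71), as the groups of 28.7% of the genes then failed to overlap in one direction or the other. Without No279 the log2 fold changes were -0.10 and -0.39.

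*Emcn* and *Tek* gave the opposite order of No203 and No279. *Emcn* had 33.8, 43.1 and 43.9 CPM in the *Cd44*+/+ tumors and 49.7, 39.8 and 9.89 CPM in No203, No279 and No364. *Tek*, the angiopoietin receptor, had 13.7, 14.8 and 16.3 CPM and 19.4, 11.7 and 3.82 CPM. In both, No203 was highest and No364 lowest of the 6 tumors, a span of 5.03-fold and 5.07-fold. The log2 fold changes were -0.28 (standard error 0.58, adjusted p = 0.871) for *Emcn* and -0.36 (standard error 0.60, adjusted p = 0.831) for *Tek* by edgeR, and without No364 they were 0.16 and 0.06.

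*Flt1*, the gene of VEGFR-1, was the endothelial gene whose genotypes did not overlap. It had 69.2, 61.7 and 64.0 CPM in the tumors with *Cd44* and 38.4, 58.7 and 10.9 CPM in No203, No279 and No364. The *Cd44*+/+ tumors lay close together and the *Cd44*-/- tumors spread below them, No279 only just. The means were 66.0 ± 4.54 CPM (SD, n = 2) and 36.0 ± 24.0 CPM (SD, n = 3). The log2 fold change of -0.85 (standard error 0.59, adjusted p = 0.589 by edgeR) did not pass the test, and it was -0.41 without No364 and -1.40 without No279. Soluble and membrane forms of *Flt1* are counted as 1 gene here.

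**Figure D2:**
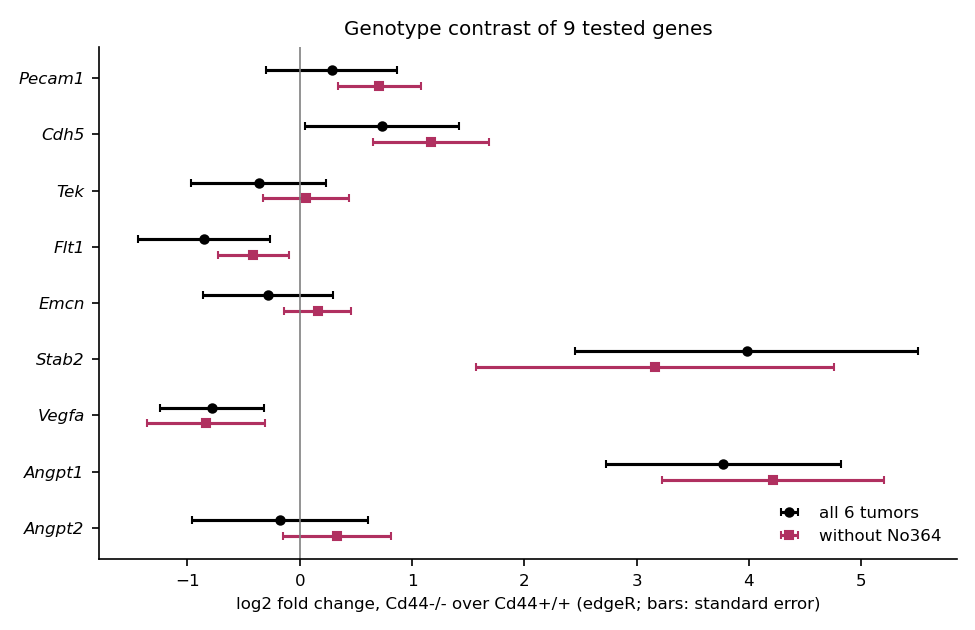
Log2 fold change of *Cd44*-/- over *Cd44*+/+ tumors (horizontal axis; bars are standard errors from edgeR) for the 9 tested genes, with all 6 tumors (black circles) and without No364 (red squares). *Angpt1* and *Stab2* lay above 3 in both fits, while *Tek*, *Emcn* and *Angpt2* crossed 0 when No364 was left out.

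A wider list of 26 endothelial genes, 5 of them among the 10, showed how far No364 stood apart. The list summed to 1062, 797 and 820 CPM in the tumors with *Cd44* and to 849, 1237 and 315.9 CPM in No203, No279 and No364. No364 was the lowest tumor for 23 of the 26 genes (88.5%), against 24.6% of all genes tested. No279 was the highest for 8 of the 26 (30.8%, against 21.5% of all genes). The median log2 fold change of the list was -0.24, and 0.15 without No364, beside 0.11 and 0.04 over all genes tested. edgeR called 0 of the 26, with 0 higher and 1 lower at an unadjusted p under 0.05 (background 6.44% higher, 4.31% lower). The endothelial sum was lowest in the tumor with the highest hepatocyte sum, and the part of those cells in it was not tested.

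Of the 26 genes, 4 were lower in every *Cd44*-/- than in every *Cd44*+/+ tumor (background 9.57%) and 0 were higher. They were *Flt1*, *Kdr*, *Robo4* and *Ptprb*, of which *Robo4*, a guidance receptor of endothelium, and *Ptprb*, the phosphatase that acts on TIE2, were named after their values had been seen. *Kdr*, the main signaling receptor for VEGF-A, had 61.7, 52.2 and 55.5 CPM in the *Cd44*+/+ tumors and 34.9, 22.9 and 14.6 CPM in the *Cd44*-/- tumors. It had a log2 fold change of -1.23 (standard error 0.39, unadjusted p = 0.0177, adjusted p = 0.452 by edgeR) and -0.96 without No364. With library size alone *Flt1*, *Kdr* and *Ptprb* overlapped between genotypes. For *Kdr* there were 734 counts of 21093300 in No244 and 879 of 22676640 in No203. *Cd34*, a sialomucin of small vessels and progenitor cells, had 67.5, 67.0 and 64.9 CPM in the *Cd44*+/+ tumors and 70.9, 247.1 and 28.1 CPM in the *Cd44*-/- tumors, so that No279 stood out as it did for *Cdh5*. *Egfl7*, secreted by endothelium, was instead highest in No244 (194.5 CPM) and had 50.7 CPM in No279.

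Genes were also expressed relative to *Cdh5* within each tumor, a ratio that does not depend on the scaling between libraries. *Flt1* counts were 2.32, 1.01 and 1.02 times those of *Cdh5* in the tumors with *Cd44* and 0.545, 0.369 and 0.438 times in No203, No279 and No364. The 3 *Cd44*-/- tumors were below the 3 others, and No364, with the lowest endothelial sum, was not lower than No279, with the highest. The mean log2 ratio was 0.62 ± 0.84 (SD, n = 2) against -1.17 ± 0.28 (SD, n = 3), a difference of -1.79, or 3.45-fold. The exact two-sided permutation test over the 5 samples gave p = 0.2, which is the smallest it can give, and an adjusted p of 0.467 over the 7 ratios computed. With the 6 tumors taken as separate the exact permutation test gave p = 0.1, again the smallest possible, and the difference lay between -1.93 and -1.19 with any 1 tumor left out. The *Pecam1* ratio was also lower in each *Cd44*-/- tumor (a log2 difference of -0.60, exact permutation p = 0.2, adjusted p = 0.467), but only -0.17 without No244. The ratios of *Tek* (-1.22) and *Emcn* (-1.11) to *Cdh5* overlapped between genotypes (exact permutation p = 0.4, adjusted p = 0.467 for each). *Cdh5* stands in all these ratios, so they are not independent of each other.

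*Vegfa*, the ligand, was measured at 76.7, 193.9 and 205.6 CPM in the tumors with *Cd44* and at 78.7, 98.3 and 100.1 CPM in No203, No279 and No364. The *Cd44*-/- tumors lay close together, and the *Cd44*+/+ tumors split into No244, the lowest of all 6, and the nearly proportional pair, the highest. The means were 138.2 ± 87.0 CPM (SD, n = 2) and 92.4 ± 11.9 CPM (SD, n = 3), with a log2 fold change of -0.78 (standard error 0.47, adjusted p = 0.544 by edgeR). The fold change ranged from -1.12 to -0.57 with 1 tumor left out, and without No244 the genotypes no longer overlapped, as held then for 39.5% of all genes. *Vegfa* had the narrowest span of the 9 tested genes, 2.68-fold between the lowest and the highest tumor.

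Of the 10 VEGF ligands and receptors found in the table (11 symbols listed, 2 of them aliases of one gene), edgeR called 0, with 0 higher and 1 lower (*Kdr*) at an unadjusted p under 0.05 (background 6.44% higher, 4.31% lower). The median log2 fold change was -0.47, and -0.29 without No364. *Kdr*, *Flt1* and *Pgf* (placental growth factor, a ligand of VEGFR-1, named after its values were seen) were below the *Cd44*+/+ tumors in every *Cd44*-/- tumor, 3 of 10 against the 9.57% of all genes. That count depended on the scaling, since *Kdr* and *Flt1* overlapped with library size alone, while *Pgf* did not. *Pgf* had 206.3, 84.8 and 86.6 CPM in the tumors with *Cd44* and 54.8, 19.2 and 1.47 CPM in No203, No279 and No364. The coreceptors for VEGF and semaphorins overlapped between genotypes. *Nrp2* had 451.4, 277.7 and 269.1 CPM in the *Cd44*+/+ tumors and 321.5, 269.1 and 41.5 CPM in the *Cd44*-/- tumors. *Nrp1* had 133.4, 76.0 and 75.5 CPM and 61.1, 45.7 and 128.4 CPM, and was not low in No364 as most endothelial genes were.

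The 2 angiopoietins varied differently from each other over the tumors. *Angpt1* had 1.93, 0.660 and 0.840 CPM in the tumors with *Cd44* and 5.12, 36.3 and 4.81 CPM in No203, No279 and No364, from 23, 19, 20, 129, 1101 and 92 counts. The 3 *Cd44*-/- tumors were above the 3 others, and No279 stood far above the other *Cd44*-/- tumors. The means were 1.34 ± 0.836 CPM (SD, n = 2) and 15.4 ± 18.1 CPM (SD, n = 3). It had a log2 fold change of 3.77 (standard error 1.04, unadjusted p = 0.00928, adjusted p = 0.452 by edgeR), and 2.14 without No279. The Wald test of DESeq2 called *Angpt1* (adjusted p = 0.0150), also without No364 (adjusted p = 0.00206), whereas summing No316 with No368 ended the call (adjusted p = 0.152), both settings chosen after the data had been seen.

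*Angpt2* had 52.8, 21.5 and 22.8 CPM in the *Cd44*+/+ tumors and 43.4, 37.3 and 5.13 CPM in No203, No279 and No364. No244 was the highest and No364 the lowest, and the genotypes overlapped. Its log2 fold change of -0.18 (standard error 0.78, adjusted p = 0.943 by edgeR) was 0.37 without No244 and 0.33 without No364.

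As a ratio within a tumor, the 2 angiopoietins did not overlap between the genotypes. *Angpt2* counts were 26.7, 31.8 and 26.5 times the *Angpt1* counts in No244, No316 and No368, but 8.45, 1.03 and 1.06 times in No203, No279 and No364. The *Cd44*+/+ tumors lay close together although *Angpt2* itself differed between them, and the *Cd44*-/- tumors No279 and No364 had almost the same ratio at very different levels of both genes. The closeness of the *Cd44*+/+ tumors rests on only 23, 19 and 20 *Angpt1* counts and includes the nearly proportional No316 and No368. Counting error in so few counts is not part of the SD given below. The mean log2 ratio was 4.80 ± 0.083 (SD, n = 2) against 1.07 ± 1.74 (SD, n = 3), a difference of -3.73, or 13.3-fold. The exact two-sided permutation test gave p = 0.2 over 5 samples and p = 0.1 over 6, each the smallest possible (adjusted p = 0.467 and 0.233 over the 7 ratios), and the difference stayed between -4.74 and -3.22 with any 1 tumor left out. The tumors with the lowest ratio were also those with the low mean of osteoblast genes given above and those with the most Y-linked transcripts. The 4 Y-linked genes summed to 44.0 CPM in No279 and 69.6 CPM in No364 and to between 0 and 3.28 CPM in the other tumors. *Xist*, expressed from the inactive X chromosome, had 0.726 CPM in No279 and 0.994 CPM in No364, against 858.9 to 1241.5 CPM in the others. Both tumors are *Cd44*-/-, so the genotypes differ in these transcripts in every contrast given here. The part of sex or of tumor cell makeup in the ratio was not tested, nor was the part of sex in the other contrasts. Both genes overlap another on the opposite strand, so the ratio depends on how such reads were counted.

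**Figure D3:**
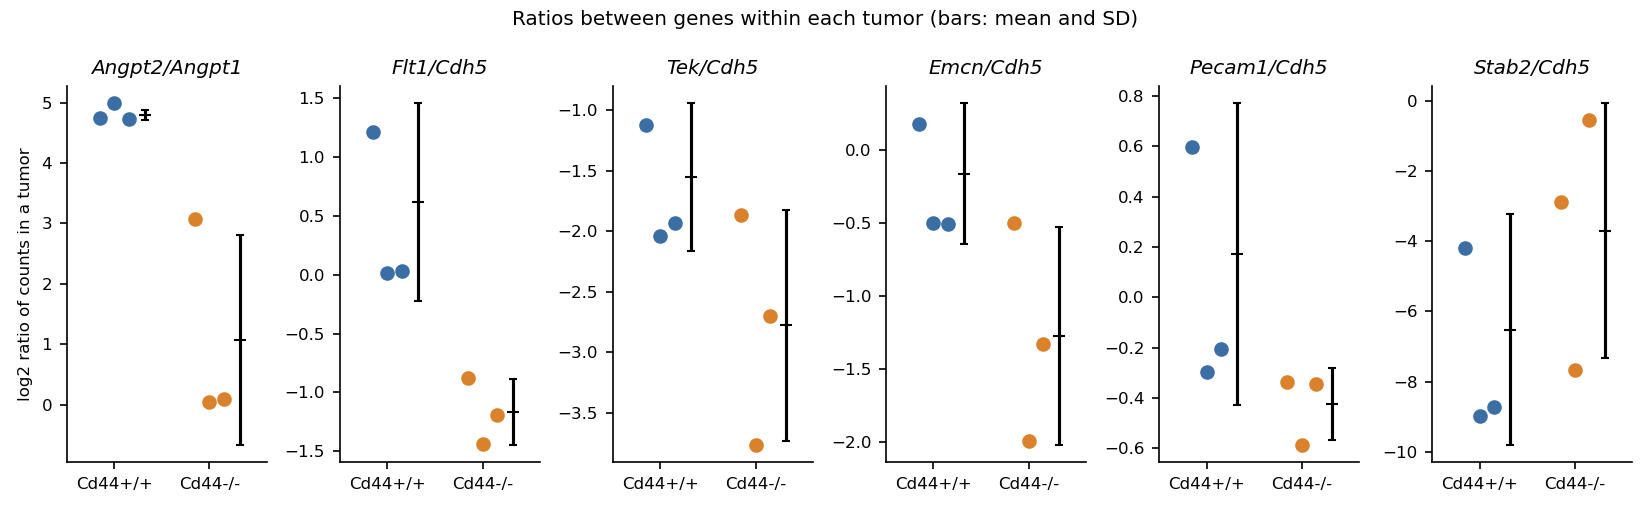
Log2 ratio of the counts of 2 genes in the same tumor (vertical axis, a scale for each panel), *Cd44*+/+ in blue and *Cd44*-/- in orange, 1 point per tumor, with mean ± SD as a black bar (No316 and No368 as 1 sample). The genotypes do not overlap for *Angpt2*/*Angpt1* (means 4.80 and 1.07), *Flt1*/*Cdh5* (0.62 and -1.17) and *Pecam1*/*Cdh5* (0.17 and -0.42).

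Among the 8 genes of the angiopoietin and TIE axis, 1 was higher (*Angpt1*) and 0 lower at an unadjusted p under 0.05 by edgeR (background 6.44% higher, 4.31% lower), 0 were called, and the median log2 fold change was -0.27 (0.05 without No364). *Tie1*, the coreceptor of TIE2, followed the pattern of the endothelial list with 38.7, 33.1 and 34.5 CPM in the *Cd44*+/+ tumors and 42.5, 47.5 and 10.05 CPM in the *Cd44*-/- tumors. *Angpt4*, another angiopoietin, had 70.5, 44.6 and 43.2 CPM in the *Cd44*+/+ tumors and 71.8, 9.64 and 0.837 CPM in No203, No279 and No364. It was thus low in the same 2 tumors in which the *Angpt2* to *Angpt1* ratio was near 1. *Foxo1*, a transcription factor that TIE2 signaling restrains, had a log2 fold change of 0.07.

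Sinusoidal *Stab2* was low in 4 tumors and high in 2. It had 1.597, 0.104 and 0.126 CPM in the tumors with *Cd44* and 9.56, 0.759 and 17.1 CPM in No203, No279 and No364, from 19, 3, 3, 241, 23 and 326 counts. No279 was below No244, so the genotypes overlapped, and the 2 high tumors were both *Cd44*-/-. With library size alone the genotypes did not overlap, at 19 counts of 21093300 in No244 and 23 of 24552557 in No279. The means were 0.856 ± 1.05 CPM (SD, n = 2) and 9.13 ± 8.16 CPM (SD, n = 3), with a log2 fold change of 3.98 (standard error 1.53, unadjusted p = 0.0365, adjusted p = 0.452 by edgeR). It was 3.16 without No364 (unadjusted p = 0.0975), 3.47 with No316 and No368 summed (unadjusted p = 0.0900) and 6.24 without No244, and DESeq2 gave an adjusted p of 0.0935.

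*Clec4g*, confined to sinusoids of liver and lymph node in the normal mouse, had 0 counts in all 3 *Cd44*+/+ tumors and in No279, 5 counts (0.198 CPM) in No203 and 305 counts (15.96 CPM) in No364. It did not pass the filter on low counts and was not tested there. The mean of the *Cd44*-/- tumors was at least 29.3-fold higher than the mean floor of 3 counts per library in the *Cd44*+/+ tumors, and this rests on No364, which was at least 63.3-fold above the highest of those floors.

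The liver markers did not move with *Stab2* alike in the 2 high tumors. *Alb*, the albumin gene of hepatocytes, had 60281 CPM in No364 but 99.3 CPM in No203, next to 59.2, 27.8 and 21.3 CPM in the *Cd44*+/+ tumors and 35.2 CPM in No279. For each 10000 *Alb* counts there were 2.83 *Stab2* counts in No364 and 962 in No203, against 37.5 to 269.5 in the other 4. *Alb* had 1151852 counts in No364 but only 507 to 2505 in the other tumors. The ratios outside No364 thus rest on a small denominator, whose origin was not tested. *Clec4g* stood at 2.65 per 10000 *Alb* counts in No364 and at 19.96 in No203. Genes of Kupffer cells, the macrophages of liver sinusoids, were in sum also higher in No203 than in the *Cd44*+/+ tumors and No279. The list of 5 summed to 10.98 CPM in No203 and 126.5 CPM in No364, and to 0.336 to 0.420 CPM in the *Cd44*+/+ tumors and 1.12 CPM in No279. All 5 had at least 3 counts in No203 and in No364, 3 of the 5 did in No279, and 1 did in each *Cd44*+/+ tumor. Their counts in No203 and No279 were 88 and 0 for *Clec4f*, 66 and 5 for *Cd5l*, and 104 and 13 for *Vsig4*. *Timd4* (15 and 14 counts) and *Marco* (4 and 2 counts) barely set these 2 tumors apart. The part of liver tissue in the *Stab2* level of either tumor was not tested.

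Other genes of liver sinusoidal endothelium were mixed. Of the 14 listed, 2 of them among the 10, 11 were tested, and at an unadjusted p under 0.05 edgeR gave 4 higher (*Stab2*, *Lyve1*, *Oit3* and *Dnase1l3*) and 1 lower (*Stab1*) (background 6.44% higher, 4.31% lower), with 0 called. *Lyve1*, *Oit3*, *Dnase1l3* and *F8* were higher in every *Cd44*-/- tumor (4 of 11, background 9.49%), of which *Oit3*, *Dnase1l3* and *F8* were named after their values were seen. *F8* was so only just, with 1.176 CPM (14 counts) in No244 and 1.189 CPM (36 counts) in No279. Its genotypes overlapped with library size alone, at 27 counts of 18076388 in No368 and 33 of 22676640 in No203. *Dnase1l3*, a secreted DNase, had 0.924, 0.313 and 0.504 CPM in the *Cd44*+/+ tumors and 1.55, 3.17 and 10.6 CPM in No203, No279 and No364. *Lyve1*, another hyaluronan receptor, found on lymphatic vessels, sinusoids and some macrophages, had 1.597, 0.834 and 0.966 CPM and 3.41, 2.71 and 2.98 CPM. It had a log2 fold change of 1.43 (standard error 0.55, unadjusted p = 0.0370, adjusted p = 0.452 by edgeR) and 1.45 without No364, about the same.

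*Stab1*, the paralog of *Stab2* that macrophages also express, ran the other way. It had 119.6, 226.4 and 219.6 CPM in the *Cd44*+/+ tumors and 83.0, 55.5 and 28.9 CPM in the *Cd44*-/- tumors. Every *Cd44*-/- tumor was lower, with a log2 fold change of -1.76 (standard error 0.52, unadjusted p = 0.0125, adjusted p = 0.452 by edgeR) and -1.44 without No364. This order depended on the scaling, since the genotypes overlapped with library size alone. No244 had 1423 *Stab1* counts of 21093300, and No203 had 2093 of 22676640. *Mrc1*, the mannose receptor shared by sinusoids and macrophages, had 6.81, 94.1 and 91.0 CPM and 35.8, 16.2 and 26.4 CPM, and *Fcgr2b* 4.45, 77.5 and 77.5 CPM and 11.1, 130.1 and 46.7 CPM. Both were lowest in No244 and overlapped between genotypes. The median log2 fold change of the list was 0.89 (0.41 without No364), and its summed level of 158.6 to 424.8 CPM in the *Cd44*+/+ tumors spanned that of the *Cd44*-/- tumors, 186 to 236 CPM, with *Stab1* the highest gene of the list on average.

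**Figure D4:**
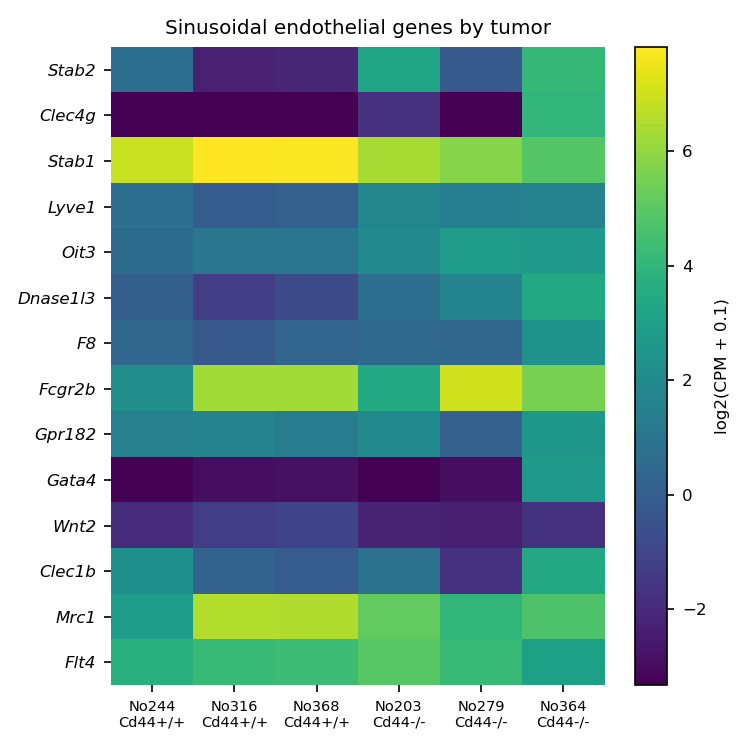
Levels of the 14 sinusoidal endothelial genes in each tumor as log2(CPM + 0.1), from dark (low) to yellow (high). *Stab2* was high in No203 and No364, *Clec4g* and *Gata4* mainly in No364, and *Stab1* was lower in all 3 *Cd44*-/- tumors on this scale, but not with library size alone.

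Per length, the 10 genes can be set in order as CPM per kb of exon, averaged over the 5 samples. *Vegfa* came first with 25.8 ± 11.9 CPM per kb (SD, n = 5), before *Cdh5* with 16.5 ± 12.8 CPM per kb. *Pecam1* (8.94 ± 5.04 CPM per kb), *Angpt2* (8.71 ± 5.08 CPM per kb) and *Emcn* (6.53 ± 2.84 CPM per kb) followed. *Flt1* (3.55 ± 1.76 CPM per kb), *Tek* (2.72 ± 1.23 CPM per kb), *Angpt1* (1.88 ± 2.87 CPM per kb), *Clec4g* (1.31 ± 2.89 CPM per kb) and *Stab2* (0.664 ± 0.840 CPM per kb) were lowest. The means of the last 3 rest on 1 or 2 tumors. *Clec4g* had 6.48 CPM per kb in No364 and at most 0.0805 in any other, and *Stab2* exceeded it in the other 5 tumors. Neighbors in this order differed by less than the larger of their SDs over tumors, except *Emcn* and *Flt1*.

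Notch and guidance genes of sprouting vessels, 12 in number, had a median log2 fold change of -0.72 (-0.32 without No364), with 1 higher and 3 lower at an unadjusted p under 0.05 (background 6.44% higher, 4.31% lower) and 0 called by edgeR. *Jag1*, a Notch ligand, had 80.8, 71.4 and 69.9 CPM in the *Cd44*+/+ tumors and 32.3, 30.3 and 21.9 CPM in the *Cd44*-/- tumors. The tumors of each genotype lay close together and the groups did not overlap (log2 fold change -1.39, standard error 0.31, unadjusted p = 0.00310, adjusted p = 0.452 by edgeR, -1.23 without No364). *Notch1*, named after its values were seen, was also lower in each *Cd44*-/- tumor (log2 fold change -1.04, unadjusted p = 0.0161 by edgeR). For *Notch1* the genotypes overlapped with library size alone, at 380 counts of 21093300 in No244 and 566 of 22676640 in No203. *Unc5b*, a netrin receptor of tip cells, had 127.4, 412.7 and 401.1 CPM and 135.6, 48.6 and 18.3 CPM, with No203 just above No244. *Plxnd1*, the receptor of semaphorin 3E, overlapped (log2 fold change 0.12). Tumor and stromal cells express *Jag1* and *Notch1* too, and bulk counts do not part them from endothelium.

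The 13 genes of mural cells, the pericytes and smooth muscle that wrap vessels, had a median log2 fold change of 0.55 (0.62 without No364), with 2 higher and 1 lower at an unadjusted p under 0.05 (background 6.44% higher, 4.31% lower) and 0 called by edgeR. The list summed to 580 to 1308 CPM in the *Cd44*+/+ tumors and to 1047, 669 and 213 CPM in No203, No279 and No364. *Rgs5*, a pericyte gene, was highest in No203, with 334.5 CPM against 69.5 to 151.1 CPM in the other 5 tumors. *Kcnj8*, the channel subunit of pericytes, had 21.3, 31.98 and 32.2 CPM in the *Cd44*+/+ tumors and 10.3, 10.6 and 8.53 CPM in the *Cd44*-/- tumors, which did not overlap (log2 fold change -1.54, unadjusted p = 0.00379, adjusted p = 0.452 by edgeR, -1.44 without No364). Its genotypes overlapped with library size alone, at 254 counts of 21093300 in No244 and 322 of 24552557 in No279. Of the 13, 1 was lower (*Kcnj8*, background 9.57%) and 1 higher (*Cnn1*, background 9.49%) in every *Cd44*-/- tumor. The 2 higher by p were *Cnn1* and *Acta2* (unadjusted p = 0.0182 and 0.0277 by edgeR), named after their values were seen. *Cnn1* had 4, 2 and 4 counts in the *Cd44*+/+ tumors, and *Acta2* overlapped. *Pdgfrb* (log2 fold change -0.46) and *Des* (-2.23) overlapped, the latter with 589.6 CPM in No244.

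Of 10 inhibitors of angiogenesis found, 8 were tested, with 2 higher and 0 lower at an unadjusted p under 0.05 (background 6.44% higher, 4.31% lower), 0 called by edgeR and a median log2 fold change of 0.65 (1.04 without No364). *Col18a1*, whose collagen chain yields endostatin, had 42.6, 27.6 and 28.8 CPM in the *Cd44*+/+ tumors and 29.6, 206.8 and 608.3 CPM in No203, No279 and No364, so that No203 lay within the *Cd44*+/+ range. It had a log2 fold change of 3.09 (standard error 1.01, unadjusted p = 0.0194, adjusted p = 0.452 by edgeR) and 1.85 without No364. *Serpinf1* (PEDF) differed little (log2 fold change -0.15) and *Thbs1* (thrombospondin-1) ran from 36.0 to 329.4 CPM within the *Cd44*+/+ tumors alone.

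Lymphatic genes (6 tested of 7) had 1 higher (*Lyve1*) and 0 lower at an unadjusted p under 0.05 (background 6.44% higher, 4.31% lower) and 0 called by edgeR, with a median log2 fold change of 0.59 (0.71 without No364). *Pdpn*, the gene of podoplanin, which osteoblast lineage cells also make, had 4.03, 94.4 and 90.1 CPM in the *Cd44*+/+ tumors and 20.2, 84.3 and 9.11 CPM in the *Cd44*-/- tumors. *Flt4* (VEGFR-3) overlapped with a log2 fold change of 0.15. Blood cell genes were read beside these because endothelium shares some of them. Platelet and megakaryocyte genes (5 of 9 tested, 0 called) had a median log2 fold change of -0.08, and their mean log2 CPM overlapped between genotypes. *Gp1bb* alone, which made up most of their sum in the 5 tumors other than No364, was lower in each *Cd44*-/- tumor (139.7, 64.9 and 66.7 CPM, then 42.5, 32.2 and 3.72 CPM), while *Ppbp* was highest in No279 (16.3 CPM). The 6 red cell genes summed to 9594, 704 and 689 CPM and 485, 137 and 3499 CPM (6 tested, 0 called). Macrophage genes had 0 of 7 called, and a median log2 fold change of -1.55, with 3 genes above 0 and 4 below. *Cd68* (1.25) and *Csf1r* (0.09) were above 0, and *C1qb* (-1.62) was below. *C1qb* overlapped, with 35.4, 258.1 and 254.5 CPM in the *Cd44*+/+ tumors and 31.0, 54.5 and 93.2 CPM in the *Cd44*-/- tumors.

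**Figure D5:**
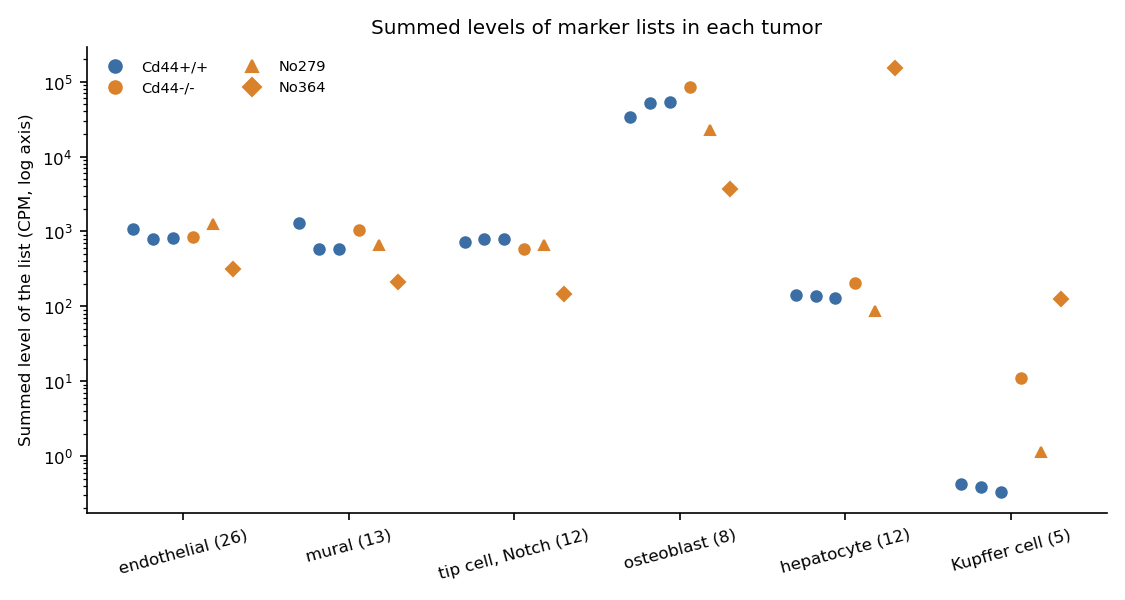
Summed level of 6 marker lists (CPM, log axis; number of genes in parentheses) in each tumor, with No279 as a triangle and No364 as a diamond. The endothelial sum was 1237 CPM in No279 and 315.9 CPM in No364, where the hepatocyte sum was 151241 CPM and the osteoblast sum was the lowest.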

How the data were processed

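RNA of the 6 osteosarcomas was made into stranded mRNA libraries by the authors, and reads were aligned to GRCm38 with HISAT2 2.0.2 and counted per Ensembl gene with featureCounts of Subread 2.0.0, per the labels. The deposited values are raw counts, without normalization, and each tumor has 1 column. The handling of multimapping reads and of strand is not given in the sources used here. Symbols and positions come from GENCODE M21 (37607 of 39179 identifiers had a symbol).

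The 10 genes and the gene lists were chosen with earlier results of these data known. Beside the 10, the text names *Cd44*, the 3 genes of each list with the highest mean CPM, the gene of each list with the smallest unadjusted p, and the nearest genes of 3 members. Some list genes are named only within sums. *Sp7*, *Gata4*, *Clec4f*, *Cd5l* and *Marco* are named outside this rule, as are the genes marked as named or picked after their values were seen. Genotypes were compared on all 6 tumors with edgeR 4.0.16 in R 4.3.3 (TMM, filterByExpr, quasi-likelihood F test, Benjamini-Hochberg over 16839 genes, threshold 0.05), and standard errors were taken from the fold change and the root of F. Fits were also run on simulated counts, drawn as independent libraries with no proportional pair and no tumor of unlike cell makeup. That run cannot show how the fits behave with such samples, and no result here rests on it. Ratios used counts plus 0.5 and exact permutation tests (SciPy 1.17.1). Alternatives were other scalings and filters, a hepatocyte covariate, DESeq2 1.42.0, voom of limma 3.58.1, No316 and No368 summed, and each tumor left out. Total counts of 18076388 to 26954142 put the floor of 3 counts at 0.0990 to 0.252 CPM, which covers counting error only. Upstream windows are from RefSeq.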

Additional observations from a re-analysis of the deposited data

How the results depend on the processing

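Of the 265 values recomputed, 236 kept their direction and their side of the threshold or their size, 15 were reversed, 12 moved and 2 passed the threshold that they had missed. The log2 fold change of *Pecam1* was -0.025 with limma-voom. *Tek* was at 0.12 and *Emcn* at 0.24 with the hepatocyte covariate, and at 0.043 and 0.14 with DESeq2 without No364. *Angpt2* was at 0.16 with library size alone, 0.31 with the hepatocyte covariate and 0.33 with DESeq2 without No364. The hepatocyte covariate, which was high in No364 alone, put *Cdh5* at 1.27 (unadjusted p = 0.0355, adjusted p = 0.558 by edgeR). It put *Pecam1* at 0.76, *Flt1* at -0.38, *Stab2* at 2.96, *Vegfa* at -0.81 and *Angpt1* at 4.17. Leaving out 1 tumor gave log2 fold changes from -0.39 to 0.71 for *Pecam1*, -0.10 to 1.17 for *Cdh5*, -0.99 to 0.057 for *Tek*, -1.40 to -0.41 for *Flt1*, -0.73 to 0.16 for *Emcn*, 3.16 to 6.24 for *Stab2*, -1.12 to -0.57 for *Vegfa*, 2.14 to 4.35 for *Angpt1* and -0.64 to 0.37 for *Angpt2*. The cause was not tested. DESeq2 called 419 genes (432 without No364, 146 with No316 and No368 summed, both added after the data were seen), and of the 10 genes it called 1 in the first of these settings and 1 in the second. edgeR called 0 genes in each setting, also with any tumor left out (0 to 0), while its genes at an unadjusted p under 0.05 numbered 1810, and 761 with No316 and No368 summed. Of the 1810, 1085 were higher and 725 lower, which became 324 and 437 with the pair summed, 591 and 949 with limma-voom. Genes whose genotypes did not overlap numbered 3209, 2046 with library size alone and 3511 to 6650 without 1 tumor, and 2 to 4 among the tested vascular genes. With library size alone the vascular genes that did not overlap were *Stab2* and *Angpt1*, while *Flt1* overlapped. The log2 ratio differences ranged without 1 tumor from -1.93 to -1.19 for *Flt1*, -0.64 to -0.17 for *Pecam1*, -1.68 to -0.73 for *Tek*, -1.50 to -0.75 for *Emcn*, 1.24 to 5.15 for *Stab2* and -0.22 to 6.08 for *Clec4g* over *Cdh5*, and from -4.74 to -3.22 for *Angpt2* over *Angpt1*. *Clec4g* reversed without No364, the tumor that holds nearly all its counts (-0.22). With at least 10 counts required in each tumor, *Stab2* was not tested. No paired analysis was possible because the tumors share no replicate numbers between genotypes. Low counts of *Stab2*, *Clec4g* and *Angpt1* in *Cd44*+/+ tumors limit their fold changes.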

Other observations

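Genes with the pattern most like that of 3 of the vascular genes were ranked by the root mean square difference of centred log2 CPM over the 5 samples. Nearest to *Cdh5* was *Dram1*, an autophagy regulator, at 0.137, with 9.24, 16.5 and 16.6 CPM in the *Cd44*+/+ tumors and 17.2, 37.9 and 6.75 CPM in No203, No279 and No364. *Gm8615*, *E130201H02Rik*, *Cpxm2* and *Racgap1* followed, the last at 0.161. Nearest to *Stab2* were *Sh2d4a* (0.454), *Ppp1r3b*, *Tmem125*, *Gm4737* and *Espn* (0.810). *Ppp1r3b*, a glycogen-targeting subunit of protein phosphatase 1, had 8.57, 1.46 and 2.02 CPM in the *Cd44*+/+ tumors and 60.1, 2.54 and 113.0 CPM in No203, No279 and No364, so that it too was high in No203 and No364. Nearest to *Vegfa* were *Chmp6* (0.0924), *Gm13562*, *Bin2*, *Ubl3* and *2610035D17Rik* (0.131). *Chmp6*, an ESCRT-III subunit, had 17.1, 40.7 and 41.0 CPM in the *Cd44*+/+ tumors and 17.3, 24.4 and 21.4 CPM in the *Cd44*-/- tumors. Among these 15 genes, 0 were in the lists of vascular, liver, blood or bone genes. Over 5 samples many genes can come this near, and the likeness is a description.

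Some genes of the lists that the naming rule left out had values that stood apart in 1 tumor, and they were picked after their values had been seen. *Vegfd* had 35.4 CPM and *Vegfc* 26.2 CPM, both lymphatic growth factors, in No279, against at most 4.62 and 5.08 CPM in the other tumors. *Apln*, the apelin gene of tip cells, had 59.7 CPM in No279 and between 3.53 and 11.5 CPM elsewhere. *Thbs2*, an inhibitor of angiogenesis, had 628.9 CPM in No279 and at most 89.7 CPM elsewhere. *Prox1*, which marks lymphatic endothelium and is also expressed by hepatocytes, had 118.4 CPM in No364 and at most 0.840 CPM in the others. *Cspg4*, the NG2 proteoglycan of pericytes, had 7.92 CPM in No279 and 1.20 CPM in No364 but between 90.1 and 122.4 CPM in the other 4 tumors.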
